A study of Mus musculus with 8 samples.

Results

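Recurrent H3K27me3 regions without any island in long chromatin fragments were examined in livers of wild-type male CD-1 (ICR) mice, an outbred stock, aged 7 weeks. Chromatin immunoprecipitation sequencing (ChIP-seq) was done on individual livers taken 3 h after an injection of TCPOBOP at 3 mg/kg or of its vehicle, 1% DMSO in corn oil. The 600 to 1100 bp fragments, digested to 500 bp, gave 3 TCPOBOP and 3 vehicle libraries. Fragments over 1100 bp, digested to 200 bp, gave 1 further library per treatment, made from the same ChIP sample as replicate 1 of that treatment. Each library is a list of islands, stretches of mm9 called as enriched by the authors, with the authors' score per island. Merging the islands of the 6 lists of shorter fragments gave 14560 union regions, 14513 of them autosomal. A region was present in a list when islands covered 50% or more of its length, and recurrent when present in at least 3 of the 6 lists. Of 5348 recurrent autosomal regions, 171 (3.20%) had 0% of their length under islands in both lists of fragments over 1100 bp. Those 171 regions are described here. They were chosen by the covered share of each region in the 8 lists, so presence and absence are given as description, with no test.

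H3K27me3, trimethylation of lysine 27 on histone H3, is laid down by Polycomb repressive complex 2 and marks genes held silent in a given cell type. In adult tissues it forms both compact peaks over CpG-rich promoters and broad domains over developmental gene clusters. Compact chromatin is known to shear less readily under sonication than open chromatin. TCPOBOP activates CAR, the constitutive androstane receptor, which switches on hepatic genes of drug metabolism, with Cyp2b10 the textbook target.

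The widest of the 171 regions, which also held the island with the highest score percentile, spanned 407.6 kb on chromosome 11 and lay over the HoxB cluster, by an approximate mm9 position from general knowledge. Its homeobox genes specify position along the body axis of the embryo, and Polycomb keeps them silent in cells that do not use them. In the GRCm38.p6 gene order 10 protein-coding genes run from Hoxb13 to Hoxb1, all of them Hoxb genes, and 2 microRNA genes, Mir196a-1 and Mir10a, lie between them. RefSeq promoter sequences of 300 bases (250 before to 50 after the gene start, GRCm38.p6) were matched by symbol for 3 of the 10 genes. They are shown because this region was the widest of the set and first by score percentile (99.9), though not by score per kb (95.4, where the highest of the set was 96.6), and because CpG-rich promoters are known sites of Polycomb recruitment in mammals. All 3 lie on the + strand, at chr11:96281655-96281954 for Hoxb8, chr11:96318017-96318316 for Hoxb4 and chr11:96365508-96365807 for Hoxb1, in GRCm38.p6 and not mm9 coordinates. Capitals mark each CG, a motif that reads the same on both strands.
Hoxb8: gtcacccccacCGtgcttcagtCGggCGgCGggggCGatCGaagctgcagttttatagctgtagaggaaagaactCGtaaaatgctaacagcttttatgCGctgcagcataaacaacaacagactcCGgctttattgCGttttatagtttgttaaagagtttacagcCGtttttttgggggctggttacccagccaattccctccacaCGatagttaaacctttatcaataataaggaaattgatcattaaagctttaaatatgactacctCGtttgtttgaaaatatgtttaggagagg
Hoxb4: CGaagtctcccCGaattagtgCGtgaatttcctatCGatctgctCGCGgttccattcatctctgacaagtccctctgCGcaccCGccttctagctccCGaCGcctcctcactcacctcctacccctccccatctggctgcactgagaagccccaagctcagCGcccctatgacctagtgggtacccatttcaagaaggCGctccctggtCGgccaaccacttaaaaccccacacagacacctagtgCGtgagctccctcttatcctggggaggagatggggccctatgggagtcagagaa
Hoxb1: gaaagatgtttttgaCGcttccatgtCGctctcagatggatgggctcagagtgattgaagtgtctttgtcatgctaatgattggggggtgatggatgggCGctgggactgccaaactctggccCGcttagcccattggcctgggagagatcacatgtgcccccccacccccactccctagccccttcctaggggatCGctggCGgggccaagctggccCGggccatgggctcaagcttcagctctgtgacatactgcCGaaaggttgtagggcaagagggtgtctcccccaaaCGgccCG
The Hoxb8 window held 13 CG, and 37.9% of the 32851 RefSeq promoter windows of that length held at least as many. The Hoxb4 window held 14 CG (36.3% of windows) and the Hoxb1 window 10 (43.5%), against a median of 7 over all windows. Of the mature microRNAs of the cluster the 5p arms are shown, with their seed, bases 2 to 8, in capitals, and the 3p arms are left out.
mmu-miR-196a-5p: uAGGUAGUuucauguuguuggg
mmu-miR-10a-5p: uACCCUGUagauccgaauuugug
Their seeds differ, so these are members of separate microRNA families.

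The region over HoxB ran from 95972801 to 96380400. Islands covered 85.6, 95.4 and 66.7% of it in TCPOBOP replicates 1, 2 and 3, against 97.8, 95.5 and 89.4% in vehicle replicates 1, 2 and 3. The lowest value belonged to TCPOBOP replicate 3, and the treatments overlapped. The best island in it ranked 8 of 13759, 8 of 10197 and 32 of 6295 by score in the TCPOBOP lists, and 4 of 10057, 13 of 14748 and 2 of 12430 in the vehicle lists. It lay in a stretch of 490 kb without any island in either list of fragments over 1100 bp, with the nearest such islands 79.2 kb before it and 3.2 kb after it. The lists used here may lack rows in such stretches, so the 0% over HoxB does not show that long fragments lack the mark.

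**Figure D1:**
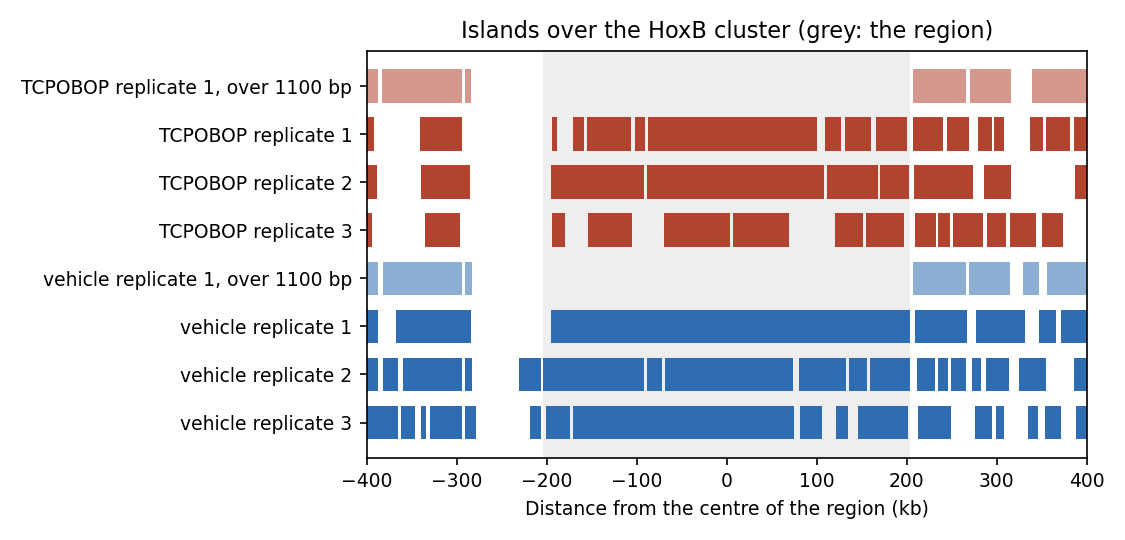
Islands (bars) within 400 kb of the centre of the 407.6 kb region over HoxB, by library, with the distance from the centre in kb on the x axis; red is TCPOBOP, blue is vehicle, paler bars are the libraries of fragments over 1100 bp, and grey marks the union region. All 6 libraries of 600 to 1100 bp have islands over most of the region, while both libraries of longer fragments have islands on each side of it and none inside.

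Not all of the 171 regions can be read alike, because 46 of them (26.9%) lay in stretches over 400 kb without an island in either long list, where the same limit holds. For 1 of the 46 the stretch was measured from the chromosome start, since no island came before it. The other 125 regions lay between long-fragment islands spaced 24.4 to 396.4 kb apart, with a median of 162 kb. Among these 125 the distance to the nearest long-fragment island was 20.4 kb at the median, with quartiles of 8.4 and 44.8 kb. Among the 46 it was 100.8 kb at the median. Over all 171 regions, 38 had a long-fragment island within 10 kb and 33 had none within 100 kb. The closest lay 0.8 kb from one. Just inside the 400 kb limit the longest stretch was 396.4 kb, and just outside it the shortest was 400.8 kb.

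**Figure D2:**
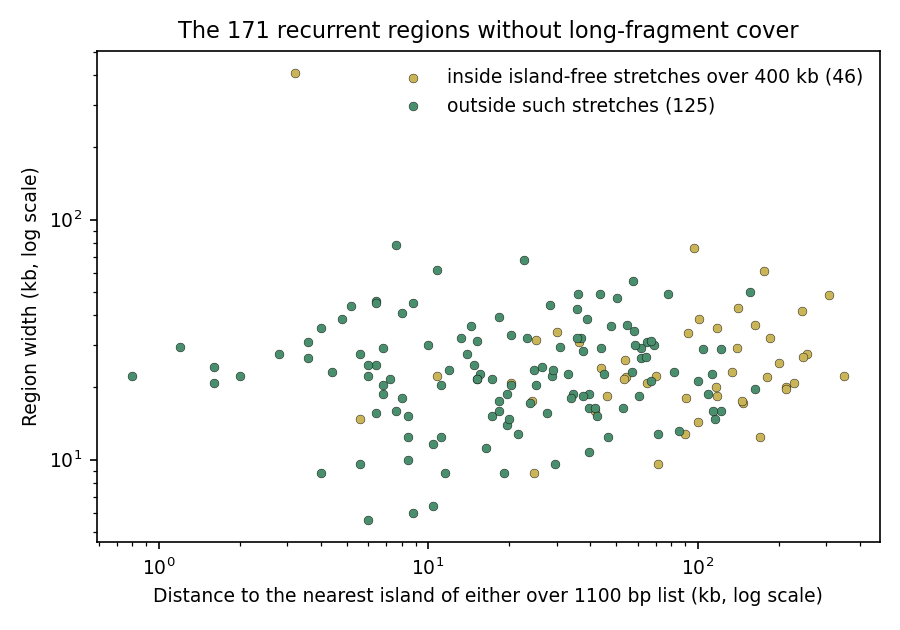
Width of each of the 171 regions in kb (y axis, log scale) against its distance in kb to the nearest island of either list of fragments over 1100 bp (x axis, log scale), with the 46 regions inside island-free stretches over 400 kb in yellow and the other 125 in green. The 407.6 kb region over HoxB stands alone at the top, at 3.2 kb from the nearest long-fragment island.

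The long lists, of 22077 islands over 676 Mb in TCPOBOP replicate 1 and 17577 islands over 654 Mb in vehicle replicate 1, covered more of the genome than any list of 600 to 1100 bp, which held 6295 to 14748 islands over 174 to 340 Mb. Of the recurrent regions, 4883 of 5348 (91.3%) were covered at 50% or more in at least 1 long list, and only 2 had cover above 0 but under 10% in both. The recurrent region with the least long-fragment cover above 0 had 0.787%. A further 49 recurrent regions were at 0% in the TCPOBOP long list alone and 113 in the vehicle long list alone. Around the 50% limit, 71 autosomal regions without long cover had their third-highest covered share between 50 and 60%, and 75 had it between 40 and 50%. The lowest such share inside the limit was 50%, and the highest outside it 49.4%.

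The share of regions without long-fragment cover was lower the more lists a region was present in. It was 23.3% (1366 of 5860) for regions present in 1 list, 11.7% (383 of 3287) for 2 lists, 5.49% (116 of 2114) for 3, 2.65% (37 of 1396) for 4, 1.30% (13 of 997) for 5 and 0.595% (5 of 841) for all 6. Outside the stretches over 400 kb the shares were 17.6, 9.13, 3.97, 2.22, 0.802 and 0.238% in the same order. Of the 171 regions 67.8% were thus present in 3 lists, the fewest the rule allows, against 38.6% of the 5177 other recurrent regions.

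**Figure D3:**
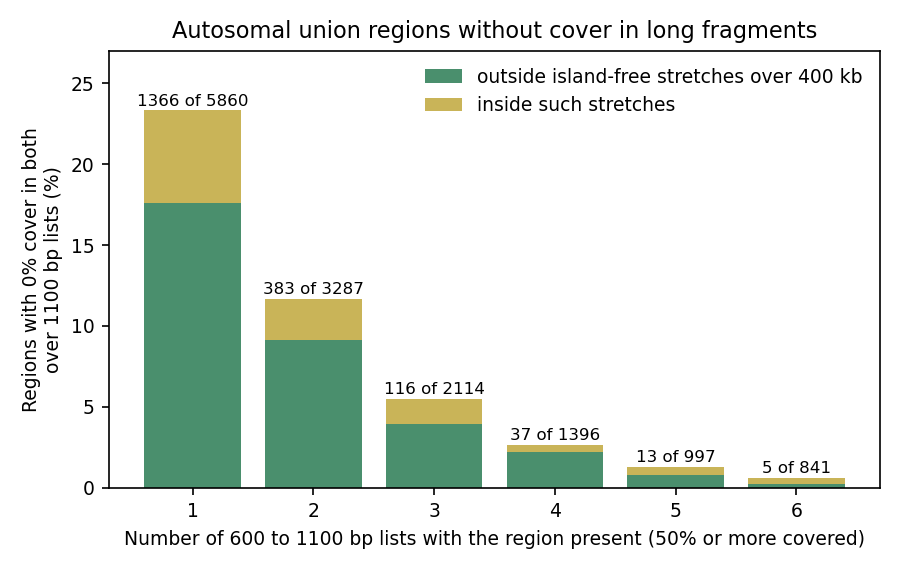
Percent of autosomal union regions with 0% cover in both lists of fragments over 1100 bp (y axis) by the number of 600 to 1100 bp lists in which the region was present (x axis), split into regions inside and outside island-free stretches over 400 kb; the numbers above the bars give regions without long cover of all regions. The percent is 23.3 for regions present in 1 list and 0.595 for those present in all 6.

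The regions were narrow and scored low within their own lists. Their median width was 22.8 kb (quartiles 17.6 and 31.2 kb), against 40.4 kb (quartiles 26 and 70 kb) for the other recurrent regions. Both the 125 regions outside long stretches and all 171 had a median of 22.8 kb. Regions of at most 10 kb belonged to the set in 11 of 69 cases (15.9%), those of 20 to 30 kb in 63 of 1123 (5.61%) and those over 60 kb in 6 of 1574 (0.381%). Any overlap with a long-fragment island removed a region, so width bears on the rule itself. Within 20 to 30 kb the share without long cover was still 8.18% for regions in 3 lists, 3.81% in 4, 2.20% in 5 and 2.94% in 6. By score, the highest island of a region stood at a median percentile of 38.9 among the islands of its own list, against 70.8 for the other recurrent regions. Within width classes the difference was smaller: at 20 to 30 kb the medians were 36.5 (63 regions) and 50.7 (1060 others), and at or below 20 kb 35.1 (61 regions) and 39.5 (658 others). Per kb of island, the score percentile was 40.2 against 56.5. Recurrent regions with a score percentile of 0 to 25 lacked long cover in 12.2% of cases (42 of 344), those at 75 to 90 in 0.312% (4 of 1281) and those at 90 to 100 in 0.508% (5 of 984).

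A few regions departed from that profile. On chromosome 15 a 68 kb region (99384001 to 99452000) had a score percentile of 96.1 and lay outside the long stretches, with long-fragment islands 84.8 kb before it and 22.8 kb after it. Islands covered 61.2, 78.2 and 58.2% of it in the TCPOBOP livers, against 20.6, 89.4 and 80% in the vehicle livers. It was present in 5 of 6 lists, with vehicle replicate 1 the exception. On chromosome 13 a 40.8 kb region (72084001 to 72124800), with a score percentile of 95.6, was covered at 0, 96.1 and 65.7% in the TCPOBOP livers and 0, 100 and 89.2% in the vehicle livers. The 2 livers at 0% were replicate 1 of each treatment, the ChIP samples from which the long libraries were also made. On chromosome 9 a 43.6 kb region (24551201 to 24594800), with a score percentile of 93.6, had 69.7, 0 and 84.4% cover in the TCPOBOP livers and 75.2, 63.3 and 40.4% in the vehicle livers. Here both replicate 1 libraries had cover, and a long-fragment island lay 5.2 kb away. The fifth region with a score percentile over 90, 76.4 kb on chromosome 8 (24214001 to 24290400), lay in a stretch of 446.8 kb and was covered at 78.5, 36.6 and 73.3% in the TCPOBOP livers and 97.4, 79.6 and 53.4% in the vehicle livers.

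Of the 171 regions 5 were present in all 6 lists, HoxB among them, and 2 of the 5 lay outside the long stretches. A 14.8 kb region on chromosome 3 (142359601 to 142374400) was covered most evenly, at 81.1, 83.8 and 91.9% in the TCPOBOP livers and 89.2, 91.9 and 86.5% in the vehicle livers. Its percentile by score per kb was 90.7, and the nearest long-fragment islands lay 20 kb before and 176 kb after it. A 28.8 kb region on chromosome 4 (154597601 to 154626400) had 55.6, 58.3 and 55.6% cover with TCPOBOP and 76.4, 56.9 and 51.4% with vehicle, which places it near the 50% limit. It lay 122 kb from the nearest long-fragment island. The other 2 regions lay in stretches of 780.4 kb and 1941.6 kb, on chromosome 5 (81894801 to 81918000, 23.2 kb) and chromosome 4 (71495601 to 71516400, 20.8 kb). They were covered at 63.8, 65.5 and 72.4% and at 86.5, 61.5 and 67.3% in the TCPOBOP livers, and at 86.2, 84.5 and 53.4% and at 69.2, 92.3 and 75% in the vehicle livers. The treatments overlapped in each of the 5 regions.

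Apart from the 68 kb region on chromosome 15, second by width, 3 of the widest regions outside the long stretches were as follows. A 78.4 kb region on chromosome 2 (102671601 to 102750000) was covered at 73.0, 54.6 and 35.7% with TCPOBOP and 76.5, 70.4 and 10.7% with vehicle. A 61.6 kb region on chromosome 5 (99656401 to 99718000) had 0, 0 and 50.6% with TCPOBOP and 33.8, 68.8 and 53.9% with vehicle. A 55.6 kb region on chromosome 12 (106776801 to 106832400) had 89.9, 46.8 and 0% with TCPOBOP and 91.4, 69.8 and 31.7% with vehicle. In all 3 of them livers of a treatment differed by more than the treatment means did. Farthest from any long-fragment island among the 125 was a 19.6 kb region on chromosome 6 (37766001 to 37785600), at 164 kb. It was covered at 0, 100 and 0% with TCPOBOP and at 0, 79.6 and 61.2% with vehicle, so again at 0% in both replicate 1 livers. A 16 kb region on chromosome 16 (18344401 to 18360400), at 122.4 kb, was covered at 65, 0 and 0% with TCPOBOP and at 0, 55 and 85% with vehicle.

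Inside the long stretches, 2 of the widest regions after HoxB and the one on chromosome 8 were neighbours on chromosome 7, in a stretch of 422.4 kb. The wider, 60.8 kb from 118727201 to 118788000, was covered at 28.3, 45.4 and 59.9% with TCPOBOP and at 93.4, 61.2 and 11.8% with vehicle, which overlapped. The other, 42.8 kb from 118683201 to 118726000, was covered at 35.5, 38.3 and 46.7% with TCPOBOP and at 82.2, 87.8 and 83.2% with vehicle. There all TCPOBOP livers lay below all vehicle livers (difference -44.2 points, limma SE 21.6, adjusted p = 1). The rule admitted this region through the 3 vehicle lists alone, so nothing is read from that difference. On chromosome 15, 48.4 kb from 59008801 to 59057200 were covered at 52.1, 62.8 and 0% with TCPOBOP and at 65.3, 0 and 33.1% with vehicle, in a stretch of 740.4 kb.

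By chromosome, members made up between 0.483% of the recurrent regions on chromosome 14 (1 of 207) and 5.99% on chromosome 15 (13 of 217). Chromosomes 7 and 11 each held 18. Outside the long stretches the order was topped by chromosome 15 (10 of 217, 4.61%) and chromosome 11 (15 of 418, 3.59%), and chromosome 14 held 0. The 171 regions fell in 158 island-free stretches, and 11 stretches held more than 1 of them, 24 regions in all.

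The long libraries were made from the ChIP samples of replicate 1. Of the 171 regions, 96 were present in the 600 to 1100 bp list of TCPOBOP replicate 1 and 120 in that of vehicle replicate 1, 69 in both and 24 in neither. At least 1 of these 2 lists held 86.0% of the regions, against 95.5% of the other recurrent regions. Thus 147 regions were found in 600 to 1100 bp fragments of a ChIP sample whose longer fragments had no island there in the lists used here.

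The rule used the covered share in these same 6 lists, though without regard to treatment, so the treatments are compared as a description. Of the 171 regions 96, 95 and 49 were present in TCPOBOP replicates 1, 2 and 3, against 120, 131 and 100 in vehicle replicates 1, 2 and 3. The 3 TCPOBOP livers were all below the 3 vehicle livers, with TCPOBOP replicate 3, which has the shortest list (174 Mb), lowest. Among the other recurrent regions 69.9, 78.3 and 44.4% were present in the TCPOBOP livers and 86.6, 82.4 and 51.1% in the vehicle livers, so there the treatments overlapped. Islands covered 38.0 ± 12.5% of a member on average with TCPOBOP and 56.7 ± 5.86% with vehicle (SD over livers, n = 3 each), a difference of -18.7 percentage points. Over all 8659 regions present in at least 2 libraries islands covered 43.9 ± 12.2% with TCPOBOP and 53.0 ± 11.9% with vehicle (SD, n = 3 each), which differ by -9.07 points. The members' difference was -20.3 points in the 125 regions outside long stretches, -11.4 without TCPOBOP replicate 3, -9.59 after centring each library on its mean over the regions tested and -3.85 with all 6 lists cut by score to 174 Mb. At that equal length 45, 19 and 49 regions were present in the TCPOBOP livers and 7, 38 and 90 in the vehicle livers, which overlapped. With islands kept only at or above a common score of 84.6 the members' difference was -14.6 points. That score is the lowest in the list of vehicle replicate 1, which therefore lost no island. Mean cover of the members stayed at 59.9% in that list and fell in every other list. With that minimum 32, 63 and 36 regions were present in the TCPOBOP livers and 120, 65 and 30 in the vehicle livers, which also overlapped.

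**Figure D4:**
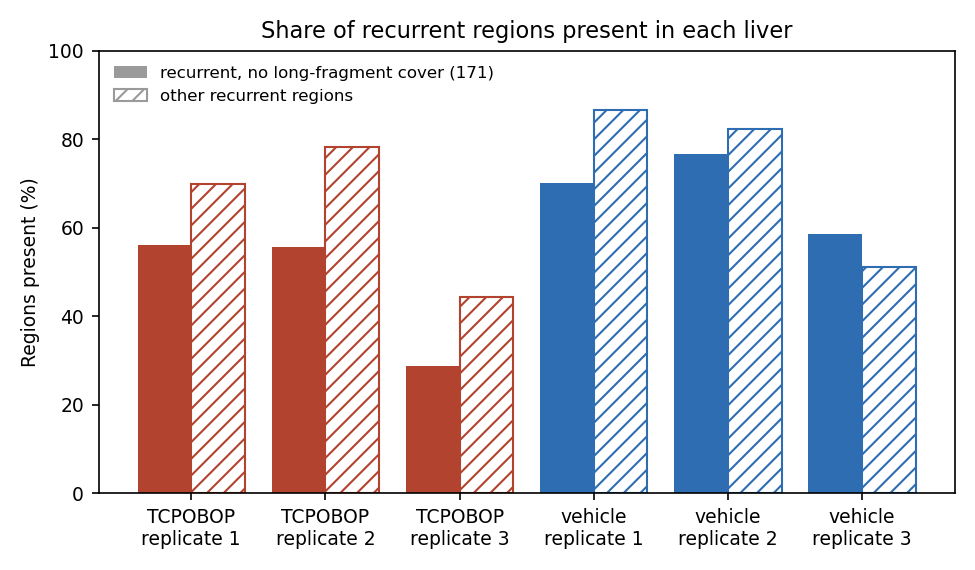
Percent of regions present (50% or more covered) in each liver, TCPOBOP in red and vehicle in blue, for the 171 recurrent regions without long-fragment cover (filled bars) and the other recurrent autosomal regions (hatched bars). For the 171 regions the TCPOBOP livers reach 28.7 to 56.1% and the vehicle livers 58.5 to 76.6%. The rule that chose the 171 regions used these same lists, and with the lists cut to equal covered length the treatments overlapped.

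Single regions were tested with limma on the covered percent, fitted over 8659 regions and adjusted by the Benjamini-Hochberg method. At an adjusted p of 0.05 limma called 0 of the 171 regions, and 0% of all regions in either direction. At an unadjusted p under 0.05, 16 of the 171 (9.36%) were lower with TCPOBOP, where 2.24% of all regions were, and 0 were higher, where 0.358% of all regions were. Of those 16, 7 were present in the 3 vehicle lists and in no TCPOBOP list. The others, except a 30.8 kb region on chromosome 4 (108098001 to 108128800), were also present in all 3 vehicle lists, with TCPOBOP lists besides. Those 3 lists alone meet the limit, so the rule admitted these regions by the group in which they were high, and nothing is read from the count. It was 4 of 171 without vehicle replicate 2 (1.17% of all regions), 8 without vehicle replicate 1 (4.91%), 10 without TCPOBOP replicate 3 (1.23%) and 22 with the replicate number as a block (3.53%). The balance over all regions turned with the scaling, from 31 higher and 194 lower as deposited to 238 higher and 145 lower with each library centred, where 3 members were higher and 15 lower. With all lists cut to equal length it was 76 higher and 55 lower over all regions, and 0 of the 69 members still tested were higher or lower. With islands kept only at or above a common score of 84.6, 3 of the 109 members still tested were lower (64 of all 5807 regions) and 0 were higher (28 of all regions). The mean was lower with TCPOBOP in 131 of the 171 regions (76.6%), where it was lower in 65.1% of all regions. It was lower in 66.5% of the other recurrent regions and in 68.6% of those among them present in exactly 3 lists. The rule used the cover in these same lists, so nothing is read from the share of the members.

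Groups without overlap were few. In 10 regions all 3 TCPOBOP livers lay below all 3 vehicle livers (5.85%, where 4.33% of all regions did), and in 2 all TCPOBOP livers lay above (1.17%, where 1.48% of all regions did). The 10 lower regions were all present in the 3 vehicle lists alone, so the rule admitted them by the group in which they were high, and nothing is read from their number. Of the 116 regions present in exactly 3 lists, the same 10 were in the 3 vehicle lists (8.62%) and 0 in the 3 TCPOBOP lists. Among the 1998 other regions present in exactly 3 lists the shares were 5.91 and 1.95%. The rule used these lists, so nothing is read from these shares either. The pattern seen most was TCPOBOP replicate 1 with vehicle replicates 1 and 2, in 21 regions.

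The 5 regions with the smallest limma p were all lower with TCPOBOP. Each was present in all 3 vehicle lists, which alone meet the limit of 3 lists. The rule thus admitted them by the group in which they were high, and nothing is read from these differences. The smallest belonged to 6 kb on chromosome 3 (69449601 to 69455600), with 0% in all 3 TCPOBOP livers and 93.3, 100 and 100% in the vehicle livers (difference -97.8 points, limma SE 28.8, limma adjusted p = 1). It lay in a gap of only 24.4 kb between long-fragment islands, 8.8 kb from the nearest. A 21.6 kb region on chromosome 7 (26627201 to 26648800) had 0% in all 3 TCPOBOP livers and 96.3, 87.0 and 83.3% in the vehicle livers (difference of means -88.9 points, limma SE 30.5, limma adjusted p = 1). A 16 kb region on chromosome 15 (96703201 to 96719200) had 0, 97.5 and 0% with TCPOBOP and 97.5, 100 and 82.5% with vehicle, so TCPOBOP replicate 2 was covered as much as the vehicle livers (difference -60.8 points, limma SE 21.2, adjusted p = 1). A 14.8 kb region on chromosome 3 (97476801 to 97491600) likewise overlapped, with 81.1, 0 and 0% against 83.8, 94.6 and 81.1%. An 8.8 kb region on chromosome 13 (34020401 to 34029200) had 0% in all 3 TCPOBOP livers and 95.5, 68.2 and 63.6% in the vehicle livers.

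**Figure D5:**
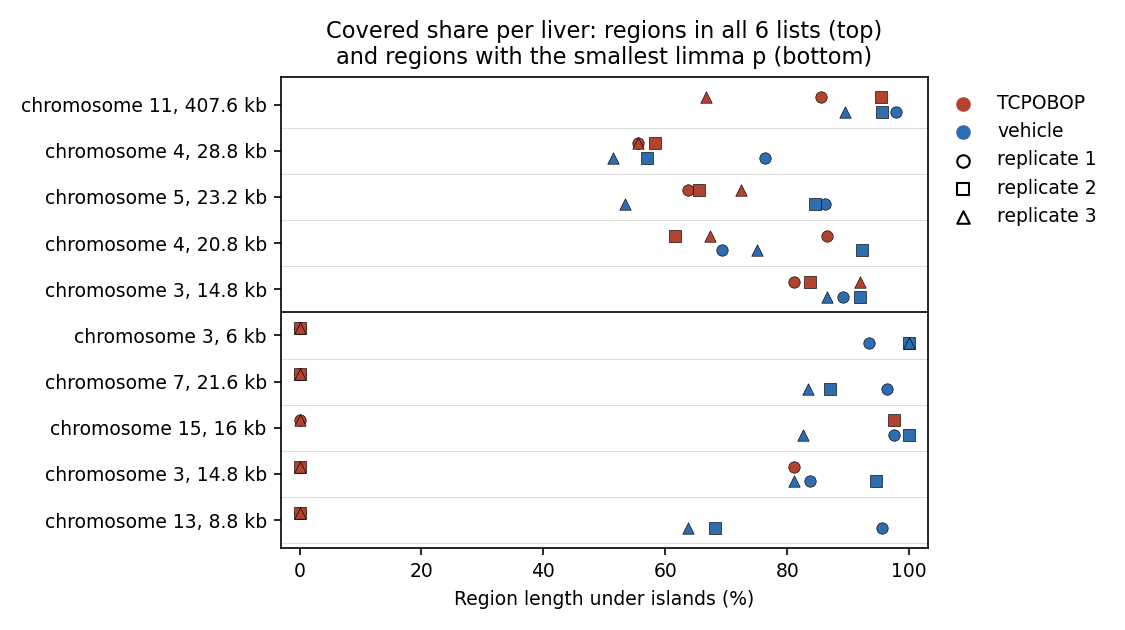
Percent of the region's length under islands (x axis) in each liver for the 5 regions present in all 6 lists (above the line) and the 5 regions with the smallest limma p (below it), TCPOBOP in red and vehicle in blue, with a marker shape per replicate. In the upper rows the treatments overlap. In the lower rows most TCPOBOP livers are at 0%, where their markers lie on each other, and the vehicle livers are at 63.6 to 100%. The lower 5 regions were each present in all vehicle lists, which alone met the limit of the rule.

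The 2 regions that were higher in every TCPOBOP liver had 32 kb (chromosome 13, 52881601 to 52913600) and 50 kb (chromosome 9, 122078801 to 122128800). Both were present in every TCPOBOP list, which alone meets the limit of the rule, so nothing is read from their differences either. The first had 67.5, 80 and 73.8% with TCPOBOP and 0, 61.3 and 0% with vehicle, and the second 64.8, 80 and 58.4% with TCPOBOP and 53.6, 24 and 0% with vehicle. Their limma differences were 53.3 points (SE 29.5, limma adjusted p = 1) and 41.9 points (SE 29.6, limma adjusted p = 1).

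Of the 171 regions 4 lay within about the same part of chromosome 7 as the Cyp2b genes, again by approximate mm9 positions from general knowledge, a locus singled out here after the values had been seen. Cyp2b10 encodes the cytochrome P450 classically induced through CAR, and in the GRCm38.p6 gene order 1 protein-coding gene, Cyp2b13, and 5 pseudogenes stand between it and Cyp2b9. The 21.6 kb region given above lies shortly before Cyp2b10 in coordinate order, and 43.2 kb from the next long-fragment island. The rule admitted that region through the 3 vehicle lists alone, so nothing is read from its difference between treatments. The other 3 shared a stretch of 514 kb without a long-fragment island (26699601 to 27213600). One of them, 36.4 kb from 26862801 to 26899200, around Cyp2b13, was covered at 0, 80.2 and 0% with TCPOBOP and 98.9, 91.2 and 27.5% with vehicle (limma adjusted p = 1). Another, 16 kb from 27156001 to 27172000, was covered at 42.5, 100 and 100% with TCPOBOP and 100, 97.5 and 95% with vehicle, so only TCPOBOP replicate 1 stood apart there. The last, 19.6 kb from 26981601 to 27001200, was covered at 0, 0 and 91.8% with TCPOBOP and 0, 98.0 and 100% with vehicle. The treatments overlapped in all 3 regions of that stretch.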

How the data were processed

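H3K27me3 ChIP-seq of 8 libraries was used: 3 TCPOBOP and 3 vehicle livers (600 to 1100 bp fragments) and 1 library per treatment of longer fragments. The authors deposited lists of islands with a score per island. Bowtie2 2.3.2, SICER 1.1 and mm9 are named in the submitters' processing notes, which give no roles. The lists hold no read counts, so the depth is unknown and no counting interval is given. Island starts and ends lay on a 400 bp grid, and islands of a list lay at least 2800 bp apart.

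Islands of the 6 lists of 600 to 1100 bp were merged wherever they overlapped or touched, and the covered percent of each union region was computed per list (Python 3.11.15, numpy 2.4.6, pandas 2.3.3). Coordinates are 1-based mm9. The scores, which the authors did not describe in the sources used here, were used only as percentiles within a list and for the score alternatives. Covered percent was tested with limma 3.58.1 (R 4.3.3, with trend) over the 8659 regions present in at least 2 lists, with Benjamini-Hochberg adjustment. On simulated data with 100 regions changed by 50 points and 100 changed by 100 points, the test recovered 0 and 56 at an adjusted p of 0.05. The changed regions were given a smaller spread between livers than the real one, and values were held within 0 to 100%. The 56 may therefore overstate what the test recovers in the real livers. With 3 livers against 3 an exact permutation test of a single value cannot give p below 0.1. Livers are labelled as individual livers, and sampling beyond these livers is not covered.

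The members, the lists and the tests were chosen with earlier results of these data known. Regions named are the 5 widest outside and the 5 widest inside stretches over 400 kb without a long-fragment island, the 5 present in all 6 lists, the 5 outside farthest from a long-fragment island, the 5 with the highest score percentile and the 5 with the smallest limma p. Regions whose treatments did not overlap upward and those near Cyp2b were chosen after their values were seen. No mm9 genome or annotation was used, so other regions carry no gene names or sequences. Promoters and microRNAs are from RefSeq (GRCm38.p6), matched by symbol. Alternatives varied the cover, list and stretch limits, the island score minimum, the covered length, the limma settings, and left out each liver in turn.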

Additional observations from a re-analysis of the deposited data

How the results depend on the processing

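The number of members, 171, followed the limits of the rule: it was 354 with presence at any overlap, 25 at 80%, 554 with 2 of 6 lists, 55 with 4 of 6 and 284 with 0% in the vehicle long list alone. It was 60 with islands kept only at or above a common score of 84.6 and 34 with all 6 lists cut to 174 Mb. Leaving out 1 liver gave 97 to 163, with 97 without vehicle replicate 2. The limit stayed at 3 lists while fewer lists remained, which tightens it. Vehicle replicate 2 was the list in which the most members (131) were present. The 125 regions outside long stretches became 267, 18, 425 and 41 under those cover and list limits, 82 with stretches over 200 kb, 42 with the score minimum, 24 at equal length and 73 to 122 without 1 liver. With no long-fragment island within 10 kb they were 90, and for the limits of 10% cover and of 1 long list alone they were not recomputed. Median width was 28.6 kb with the score minimum and 20.8 to 24 kb without 1 liver. The members' mean cover difference was -14.6 points with the score minimum, which left the list of vehicle replicate 1 uncut. It was -3.85 points at equal length and -22.4 to -11.4 without 1 liver. For the mean cover difference and the limma tests the original regions were kept and their cover recomputed where islands were cut. For the member counts and median widths the islands were merged anew into union regions.

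limma called 0 regions in either direction in 13 of 14 alternatives. The arcsine square root scale called 1 lower region (adjusted p = 0.0430), which was not a member, and the lowest adjusted p over the 14 alternatives ran from 0.0430 to 1. The 5 regions with the smallest p kept the sign of their difference in each alternative that gave a value. With the replicate number as a block limma called 0 regions (lowest adjusted p = 0.805). Same-numbered livers did not deviate together (correlations of -0.05, -0.02 and 0.04), so the numbers were not taken as pairs. Regions without overlap numbered 0 higher and 2 lower with the score minimum and 1 and 0 at equal length. Without 1 liver they numbered 3 to 8 higher and 13 to 40 lower, where fewer livers loosen the criterion. The lists hold no read counts, so what depth limits cannot be stated.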

Other observations

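Chromosome X lay outside the autosomal rule. Of its 13 recurrent regions 2 had 0% cover in both lists of fragments over 1100 bp, and both lay in stretches over 400 kb without a long-fragment island. One, 16.4 kb from 50402401 to 50418800, was covered at 100, 65.9 and 0% in the TCPOBOP livers and 56.1, 58.5 and 0% in the vehicle livers. The other, 26.8 kb from 156843601 to 156870400, was covered at 52.2, 0 and 0% in the TCPOBOP livers and 100, 52.2 and 50.7% in the vehicle livers.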
